A study of Mus musculus with 12 samples.

Results

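The response of wild-type mouse macrophages to lipopolysaccharide (LPS) was measured on 6 of the 12 arrays of the series, those labelled ERRα+/+ with LPS (3 arrays) and ERRα+/+ with PBS (3 arrays). The arrays were chosen by these labels alone and by no measured value. Bone marrow-derived macrophages came from the marrow of male C57BL6 mice aged 6 to 8 weeks and were grown for 5 to 7 days with macrophage colony-stimulating factor. They then received LPS at 100 ng/mL, or phosphate-buffered saline (PBS) as the vehicle. The sources used here do not say for how long LPS was left on the cells. The other 6 arrays held macrophages of ERRα-/- mice, which lack the nuclear receptor ERRα encoded by Esrra, under the same treatments. Total RNA was hybridised to 1-colour Agilent mouse arrays.

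LPS is the main cell wall lipid of Gram-negative bacteria, and macrophages sense it through a complex of Cd14, Md-2 and the receptor Tlr4. Inside the cell, adaptor proteins of the receptor activate NF-kB and MAP kinases, which switch on cytokine genes, and the kinase Tbk1, which activates Irf3 and so type I interferon. The interferon that is released acts back on the cell through STAT proteins and raises a further set of antiviral genes. The same stimulus brings in feedback inhibitors and lowers many genes of the resting cell.

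Levels are log2 signals minus each array's own 75th percentile, so 0 is the signal that 75% of probes on that array lie below, and a difference of 1 is a 2-fold change. Each gene was represented by its brightest probe. A gene was called higher or lower where the limma test of LPS against PBS gave a Benjamini-Hochberg adjusted p under 0.05 over all 13114 genes tested, and each difference is given with its standard error and n = 3 arrays a group. These are levels of RNA in a whole culture, in which fewer cells of a type and less RNA per cell cannot be told apart. Probe brightness depends on the probe, so levels are compared between arrays and not between genes.

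The 6 arrays lay on 2 slides, with replicate 1 of each group on slide 1 and replicates 2 and 3 on slide 2. The source label of replicates 2 and 3 reads cell line, while their sample characteristics name bone marrow-derived macrophages. The signal at the 75th percentile was 588 and 526 units on the PBS and LPS arrays of slide 1 and between 319 and 361 units on the 4 arrays of slide 2. On the first principal component of the 6 arrays, which held most of the variance, the PBS arrays lay at -79.9, -78.5 and -77.5. LPS replicate 1 lay at 41.8, between these and the other LPS arrays at 96.3 and 97.7, so the LPS array of slide 1 stood apart from its group. Repeated spots of a probe varied by 12.6% and 8.23% (median coefficient of variation) on PBS replicates 2 and 3, against 3.75% to 4.61% on the other 10 arrays of the series.

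Replicates 2 and 3 of a group were closer to each other than either was to replicate 1. Across genes, Pearson's r was 0.993 between PBS replicates 2 and 3 and 0.995 between LPS replicates 2 and 3, and 0.968 to 0.973 for each pair that held replicate 1. For probes printed 5 or more times, 1 spot differed between LPS replicates 2 and 3 by a median of 0.09 (log2), more than the 0.04 between 2 spots on LPS replicate 2 itself. For the PBS pair that median was 0.17, less than the 0.18 between spots on PBS replicate 2 and more than the 0.12 on PBS replicate 3. The labels name replicates 2 and 3 as separate samples but do not say that they came from separate mice or cultures, so the p-values measure the spread between arrays, which may be technical. All 3 arrays a group were used. With replicates 2 and 3 averaged to 1 value, an alternative chosen after seeing the data, 919 genes rather than 2908 were called higher and 947 rather than 3111 lower, and 1864 of these 1866 genes had been called with 3 arrays. Where a gene named here lost its call under that setting, that fit's p is given as the averaged adjusted p. Slide 1 held replicate 1 alone, so slide and replicate 1 cannot be told apart.

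LPS moved 2908 genes up, 22.2% of the 13114 tested, and 3111 genes down, 23.7%. In either direction 45.9% passed the test (limma, adjusted p under 0.05). The median rise among genes called higher was 1.20 and the median fall among genes called lower was -1.28, so the number and the typical size of rises and falls were close. The far ends were not: 403 genes rose and 184 fell by over 3, and 106 rose and 9 fell by over 5. All 3 LPS arrays lay above all 3 PBS arrays for 26.6% of genes and below them for 27.3%.

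The median difference over all genes tested was 0.02. Taking the 75th percentile over the probes well above background on all 12 arrays moved that median to -0.21, and quantile normalization moved it to -0.14. Under the first of these settings 2214 genes were called higher and 4093 lower, so the share of calls that were rises was 35.1% in place of 48.3%. The direction of small differences therefore depends on the scaling. Of the 7095 genes not called, 4181 had a 95% confidence interval that lay within -1 to 1, and for 2914 it reached past 1 or -1, so that a change of that size was not detectable or not excludable with these arrays.

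The cultures carried the markers of macrophages: all 10 markers tested, among them Adgre1, Csf1r, Itgam, Lyz2 and Spi1, were well above background on all 6 arrays. All 8 neutrophil markers on the array were too, and the summed level of that list ran from 8.26 to 8.79 on the PBS arrays and from 8.06 to 9.06 on the LPS arrays. Of 6 T and NK cell markers only Cd3e was above background on all 6 arrays, as were 3 of 5 B cell markers. Among these lists 3 genes moved far: Zbtb46, a dendritic cell transcription factor that was above background on 1 of 3 PBS arrays, rose (adjusted p = 1.29e-06), as did Pdgfrb, a receptor of fibroblasts and pericytes (5.35 ± 0.48, adjusted p = 1.89e-05), and Mpo, the myeloperoxidase of granulocytes and their precursors, fell (-2.61 ± 0.56, adjusted p = 0.00362, averaged adjusted p = 0.0547). The part of other cell types in the results was not tested.

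**Figure D1:**
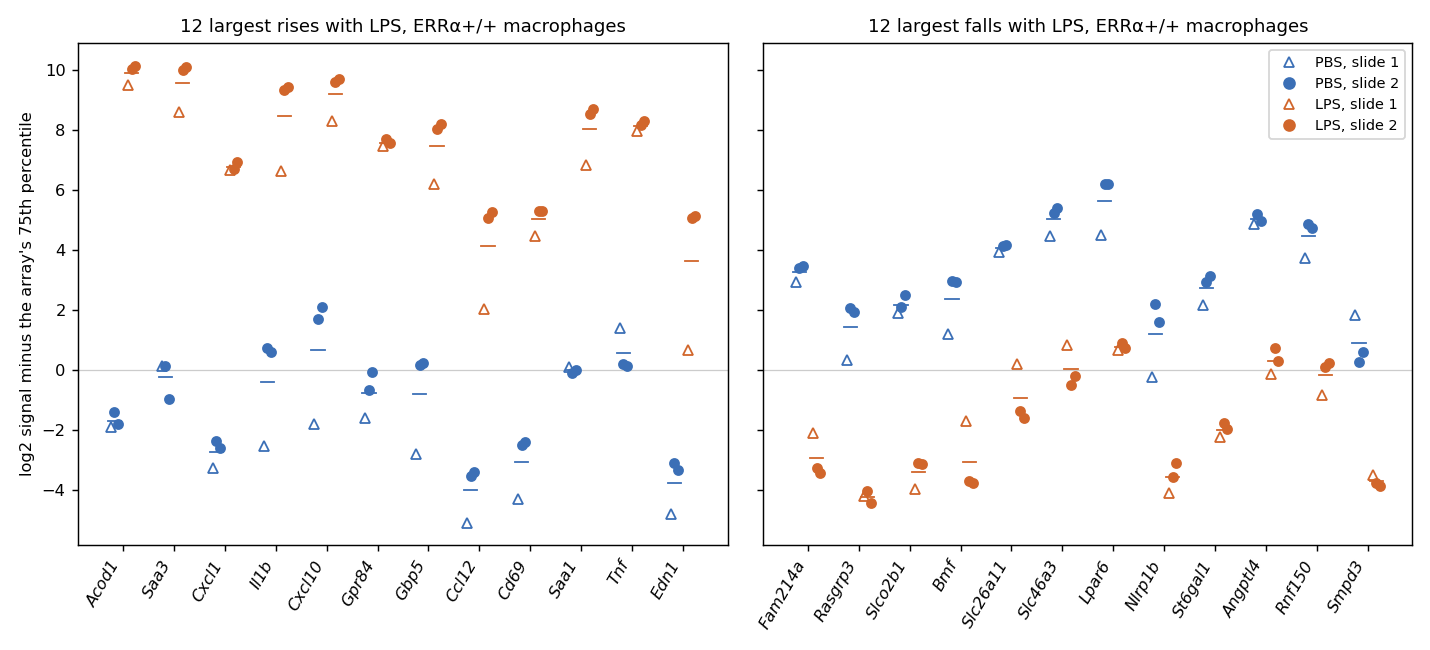
Level of the 12 genes with the largest rises (left) and the 12 with the largest falls (right) among called genes measured above background in both groups, as log2 signal minus the array's 75th percentile. Each point is 1 array (blue PBS, orange LPS, open triangles slide 1, filled circles slide 2) and each bar is a group's mean. Both sets were limited to genes in which no LPS array overlapped a PBS array.

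The largest rise measured above background in both groups was that of Acod1, which makes itaconate from an intermediate of the citric acid cycle. Acod1 stood at -1.89, -1.39 and -1.81 on the PBS arrays and 9.50, 10.03 and 10.15 on the LPS arrays, a difference of 11.59 ± 0.75, adjusted p = 2.63e-06. The groups lay far apart, and the rise on slide 1 (11.39) was close to that on slide 2 (11.69). Saa3 and Saa1 encode serum amyloid A proteins of the acute phase response. Saa3 stood at 0.13, 0.12 and -0.97 on the PBS arrays and 8.60, 10.00 and 10.12 on the LPS arrays, and Saa1 at 0.11, -0.11 and -0.01 on the PBS arrays and 6.83, 8.54 and 8.70 on the LPS arrays. Both rose by more on slide 2 than on slide 1, Saa3 by 10.48 against 8.48 (adjusted p of the slide difference = 0.0454) and Saa1 by 8.68 against 6.72 (adjusted p = 0.00106).

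Chemokines and cytokines made up much of the rest. Cxcl1, which attracts neutrophils, stood at -3.26, -2.38 and -2.59 on the PBS arrays and 6.68, 6.72 and 6.93 on the LPS arrays, and its difference was 9.52 ± 0.36, adjusted p = 2.08e-07. Cxcl10, which attracts activated T cells and is a target of interferon, stood at -1.80, 1.69 and 2.09 on the PBS arrays and 8.32, 9.61 and 9.71 on the LPS arrays. The PBS array of slide 1 was the low one for Cxcl10, and its rise was 10.11 on slide 1 and 7.77 on slide 2 (adjusted p of the slide difference = 0.00190). Ccl12, a monocyte chemoattractant above background on 2 of 3 PBS arrays, rose by 8.13 ± 0.88, adjusted p = 6.33e-05.

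Il1b, the pyrogenic cytokine that caspases release from its precursor, stood at -2.53, 0.73 and 0.60 on the PBS arrays and 6.63, 9.33 and 9.44 on the LPS arrays. Again the slide 1 arrays were low in both groups, and the groups stayed apart by a difference of 8.87 ± 0.96, adjusted p = 6.13e-05. Tnf, the early cytokine of endotoxin shock, stood at 1.39, 0.19 and 0.14 on the PBS arrays and 7.98, 8.18 and 8.30 on the LPS arrays, which is a difference of 7.58 ± 0.51, adjusted p = 3.46e-06. The LPS levels of Tnf were close together, and the PBS array of slide 1 was the high one.

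Among receptors and surface proteins, Gpr84, a receptor for medium-chain fatty acids, rose by 8.35 ± 0.36, adjusted p = 3.23e-07, and Cd69, a lectin of early activation, rose by 8.10 ± 0.51, adjusted p = 2.48e-06. Gbp5, an interferon-induced GTPase that acts on intracellular bacteria and inflammasomes, rose by 8.28 ± 0.82, adjusted p = 3.74e-05. Edn1, which encodes the vasoconstrictor endothelin, stood at -4.81, -3.12 and -3.35 on the PBS arrays and 0.65, 5.07 and 5.13 on the LPS arrays. The LPS array of slide 1 was far below the other LPS arrays for Edn1 but above every PBS array (7.38 ± 1.16, adjusted p = 0.000626).

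For 93 genes the probe was not well above background on any PBS array and was above it on all 3 LPS arrays. Of these 93 genes 90 were called higher, a direction that this choice of genes largely sets in advance. A fold change against PBS arrays not above background is a lower bound. It was taken here from the mean of the LPS arrays over the mean of the PBS arrays. On each PBS array a signal below the array's dimmest above-background signal was first raised to that signal. Il6, the cytokine that drives the acute phase response in liver, led this group: it stood at -6.96, -5.04 and -6.14 on the PBS arrays and 5.03, 7.68 and 7.80 on the LPS arrays, at least 3248-fold higher with LPS (limma adjusted p = 1.09e-05). Shisa3, an adaptor of the endoplasmic reticulum, was at least 242-fold higher, and Adamts4, a protease that cleaves proteoglycans, at least 141-fold. Lad1, a filament protein of basement membranes, was at least 105-fold higher with LPS arrays at 1.53, 2.00 and 2.05. Tarm1, a receptor of the leukocyte immunoglobulin-like kind, was at least 50.5-fold higher with LPS arrays at 0.97, 0.81 and 0.63. Vgf and U90926 belonged to this group too (averaged adjusted p = 0.0643 and 0.0597). Slfn4, of the Schlafen family, stood at -0.68, 3.38 and 2.99 with LPS (at least 106-fold), and Has1, a synthase of hyaluronan, at -1.74, 1.86 and 2.13 (at least 48.8-fold). Il19, a cytokine of the interleukin-10 family, stood at -2.76, 2.08 and 2.14 (at least 40.6-fold, averaged adjusted p = 0.116), and another probe of Il19 rose by 4.59. Ptgs2, the inducible cyclooxygenase of prostaglandin synthesis, was above background on 1 of 3 PBS arrays and stood at 4.23, 6.70 and 6.81 on the LPS arrays (adjusted p = 5.67e-06). Its size of change is not given, since it was not well above background on the other 2 PBS arrays.

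Promoters of 5 of these genes are shown because their genes rose by large amounts and hold matches to the motifs of the factors named in the background. Each runs from 250 bases before to 50 bases after the transcription start, 5′ to 3′ on the strand of the gene, from RefSeq (GRCm38.p6). Capitals mark matches, on either strand, to GGGA and TTCC with any 2 bases between (NF-kB), to GAAA and GAAA with any 2 bases between (the interferon-stimulated response element, ISRE) and to TGACTCA (AP-1), and a stretch of capitals longer than 1 motif holds overlapping matches. Il6 lies at chr5:30012864-30013163 (forward strand), Cxcl1 at chr5:90890995-90891294 (forward), Cxcl10 at chr5:92348840-92349139 (reverse), Gbp5 at chr3:142496684-142496983 (forward) and Ifi213 at chr1:173599223-173599522 (reverse).
Il6: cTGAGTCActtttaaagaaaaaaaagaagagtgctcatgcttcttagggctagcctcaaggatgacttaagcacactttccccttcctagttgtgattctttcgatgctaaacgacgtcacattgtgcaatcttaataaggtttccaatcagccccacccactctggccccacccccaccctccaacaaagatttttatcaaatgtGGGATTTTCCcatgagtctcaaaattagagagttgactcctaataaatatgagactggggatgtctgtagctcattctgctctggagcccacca
Cxcl1: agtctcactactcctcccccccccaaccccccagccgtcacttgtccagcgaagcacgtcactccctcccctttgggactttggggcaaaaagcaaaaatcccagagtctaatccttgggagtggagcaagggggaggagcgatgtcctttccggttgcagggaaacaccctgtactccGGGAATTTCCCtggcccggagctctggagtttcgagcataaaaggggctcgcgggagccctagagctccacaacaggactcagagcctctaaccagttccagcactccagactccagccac
Cxcl10: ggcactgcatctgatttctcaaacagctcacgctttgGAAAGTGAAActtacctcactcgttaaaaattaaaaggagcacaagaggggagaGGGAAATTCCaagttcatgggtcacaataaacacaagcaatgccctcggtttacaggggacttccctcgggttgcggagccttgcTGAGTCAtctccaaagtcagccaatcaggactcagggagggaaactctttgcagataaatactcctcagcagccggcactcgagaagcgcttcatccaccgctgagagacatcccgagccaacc
Gbp5: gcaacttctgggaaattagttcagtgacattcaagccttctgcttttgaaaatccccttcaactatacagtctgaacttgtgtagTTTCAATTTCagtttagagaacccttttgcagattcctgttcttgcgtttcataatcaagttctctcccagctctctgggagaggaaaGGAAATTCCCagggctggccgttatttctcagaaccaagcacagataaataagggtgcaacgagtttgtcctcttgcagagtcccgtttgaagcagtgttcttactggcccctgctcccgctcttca
Ifi213: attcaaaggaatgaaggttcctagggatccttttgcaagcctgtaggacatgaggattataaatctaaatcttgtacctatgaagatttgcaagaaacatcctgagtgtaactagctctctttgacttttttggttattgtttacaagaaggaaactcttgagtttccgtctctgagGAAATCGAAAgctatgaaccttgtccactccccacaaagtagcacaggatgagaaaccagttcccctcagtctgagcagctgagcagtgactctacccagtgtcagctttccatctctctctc
The Il6 window holds 1 NF-kB match, 44 bases before the start, and 1 AP-1 match at its far end. Cxcl1 holds overlapping NF-kB matches on both strands, the first of them 71 bases before the start, and no ISRE match. Cxcl10 holds all 3 kinds, with the ISRE match 213, the NF-kB match 159 and the AP-1 match 74 bases before the start. Gbp5 holds an ISRE match at 165 and an NF-kB match at 77 bases before the start, and Ifi213, a DNA-binding protein of the Ifi200 family, holds an ISRE match alone.

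The same letters were counted in all promoters of RefSeq and in those of the 10521 genes tested that had one. ISRE matches were in 3.49% of the 27025 promoters of all genes, in 2.66% of the promoters of genes not called, in 5.92% of those of genes called higher and in 48 of 317, or 15.1%, of those of genes that rose by over 3. In promoters of genes called lower they were in 2.65%. AP-1 matches were in 5.17% of all promoters and in 3.81% of those of genes tested. Of promoters of genes that rose by over 3, 11.4% held one, against 5.22% of those of genes that fell by over 3. Among all genes called higher the share was 4.45%, among all called lower 2.93%, and among genes not called 3.94%. The NF-kB letters GGGA, any 2 bases and TTCC, which were taken up after the looser form had been counted, were in 1.43% of all promoters and in 15 of 317, or 4.73%, of those of genes that rose by over 3. For this stricter form the shares were 1.86% among all genes called higher, 1.33% among all called lower and 1.50% among genes not called. The looser form, GGG, any 5 bases and CC, was in 50.4% of all promoters and 65.4% of those of genes tested. It was in 67.2% of those of genes called higher and 64.5% of those of genes called lower. Among genes that moved by over 3 the shares were 60.3% for rises and 60.4% for falls, so this form hardly separated the classes.

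**Figure D2:**
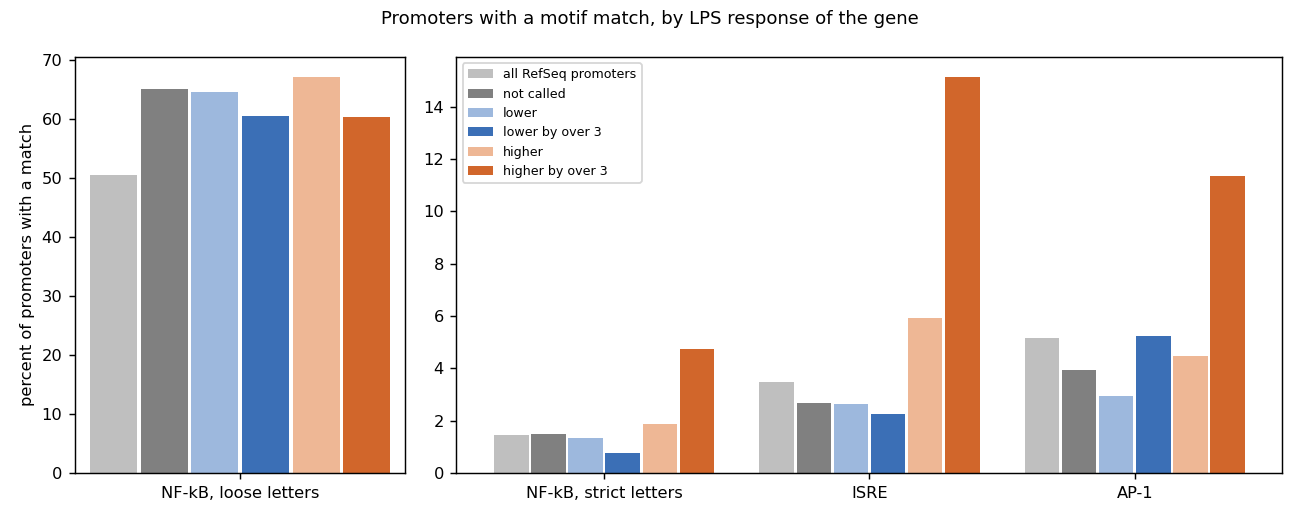
Percent of promoters (250 bases before to 50 after the start) that hold a match to each motif, for all RefSeq promoters, for genes not called, and for genes called lower or higher with LPS, with those that moved by over 3 (log2) as a separate bar. ISRE matches were in 15.1% of promoters of genes that rose by over 3 and in 3.49% of all promoters.

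Gene lists were described by how many members passed the test, read against the 22.2% and 23.7% of all genes that did so in each direction. Of the 1036 genes of 30 lists that were on the array, 972 were tested, and the lists shown in the plot of list shares run from the chemokines, with a median difference of 3.95, to the circadian clock, with -0.75.

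**Figure D3:**
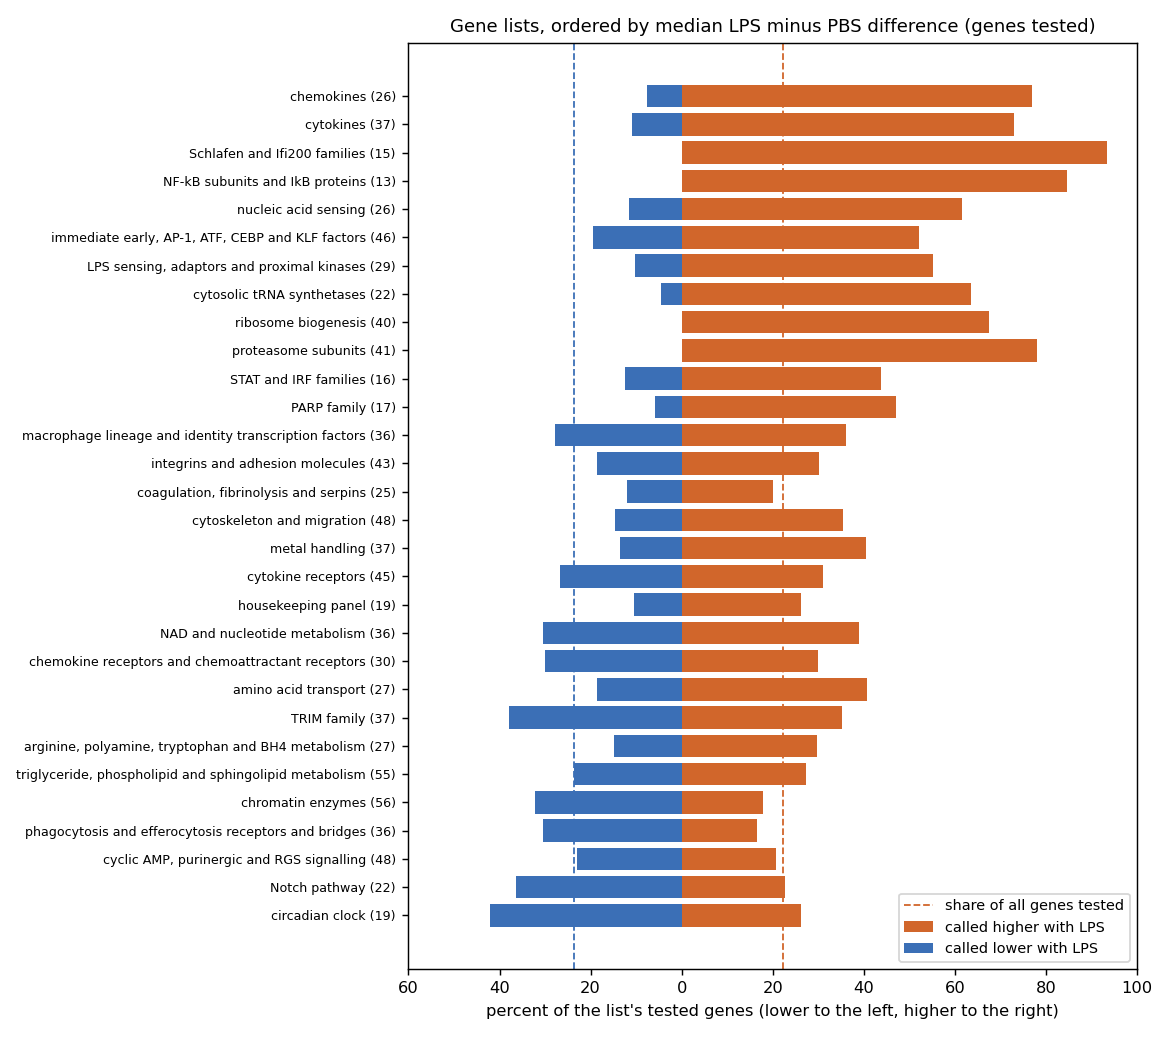
Percent of the tested genes of each list that were called higher (orange, to the right) or lower (blue, to the left) with LPS, ordered by the list's median difference, with the number tested in brackets. Dashed lines mark 22.2% higher and 23.7% lower among all genes tested, and the Schlafen and Ifi200 families reach furthest to the right with 14 of 15 genes.

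The sensing pathway itself changed. Of 29 tested genes of LPS sensing, adaptors and proximal kinases, 16 rose and 3 fell, with a median of 1.07. The receptor Tlr4 fell, from 2.45, 2.54 and 2.74 on the PBS arrays to 1.50, 1.21 and 1.16 on the LPS arrays (-1.28 ± 0.16, adjusted p = 0.000136). Its co-receptor Cd14 rose, from 5.27, 6.49 and 6.79 to 8.18, 8.65 and 8.82 (2.37 ± 0.35, adjusted p = 0.000421), so the 2 receptor genes moved in opposite directions. Lbp, the serum protein that delivers LPS to Cd14, was above background on 2 of 3 LPS arrays and fell (-1.35 ± 0.35, adjusted p = 0.00887, averaged adjusted p = 0.0501).

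Inside the cell the rises held both activators and brakes of the pathway. Peli1, a ubiquitin ligase that acts on Irak kinases, rose most (3.54 ± 0.36, adjusted p = 4.53e-05). Irak3, the kinase-dead Irak that dampens Toll-like receptor signalling, stood at 1.49, 2.52 and 3.04 on the PBS arrays and 5.40, 5.54 and 5.60 on the LPS arrays. Tnip1, a partner of the NF-kB inhibitor A20, stood at 5.56, 4.90 and 5.81 on the PBS arrays and 7.94, 8.46 and 8.57 on the LPS arrays, and another probe of it rose by 2.65. No LPS array of Irak3 or Tnip1 overlapped a PBS array.

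Among 13 NF-kB subunits and IkB proteins 11 rose and 0 fell, with a median of 2.88 (2.09 with normexp background correction). IkB proteins hold NF-kB in the cytoplasm, and Nfkbia, which encodes IkB alpha, stood at 4.31, 5.31 and 5.51 on the PBS arrays and 8.30, 9.27 and 9.49 on the LPS arrays. The slide 1 array was lowest in both groups, and the rise was 3.99 on slide 1 and 3.97 on slide 2. Nfkbie (IkB epsilon) rose by 3.71 ± 0.17, adjusted p = 4.81e-07 and Nfkb2, the precursor of the p52 subunit, by 3.70 ± 0.39, adjusted p = 5.55e-05.

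Of 46 immediate early, AP-1, ATF, CEBP and KLF transcription factors 24 rose and 9 fell. This list differed between slides, with a median of 0.23 on slide 1 and 1.50 on slide 2. Batf2, which partners Irf1 in macrophages, stood at 1.19, 0.84 and 1.25 on the PBS arrays and 5.43, 6.21 and 6.24 on the LPS arrays. Maff, a small Maf protein, rose by 4.66 ± 0.35, adjusted p = 6.63e-06, and Ets2 by 4.14 ± 0.22, adjusted p = 9.58e-07. Cebpa, a factor of myeloid differentiation, went the other way, from 3.33, 3.01 and 3.17 to 1.81, -0.36 and -0.25, where slide 1 was the high LPS array (-2.77 ± 0.61, adjusted p = 0.00406, averaged adjusted p = 0.0927).

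Of 16 STAT and IRF genes 7 rose and 2 fell. Irf7, the factor that amplifies type I interferon, stood at 1.68, 0.32 and 0.58 on the PBS arrays and 3.97, 5.33 and 5.23 on the LPS arrays, and its rise on slide 2 (4.83) was larger than on slide 1 (2.29, adjusted p of the difference = 0.000946). Irf1, another activator of interferon-response genes, rose by 2.76 ± 0.17, adjusted p = 2.44e-06.

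Transcription factors of macrophage lineage and identity went both ways, 13 of 36 up and 10 down. Gfi1, a repressor known from granulocyte development, stood at -0.63, -1.01 and -1.18 on the PBS arrays and 4.30, 5.87 and 6.21 on the LPS arrays. Tfec, a macrophage member of the MiT family, rose by 3.21 ± 0.18, adjusted p = 1.35e-06.

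Of 37 cytokines tested, 27 rose and 4 fell, with a median of 3.63 (2.46 with normexp background correction). Beyond Il6, Il1b and Tnf described above, Tnfsf15, a ligand of the tumour necrosis factor family, stood at -1.61, -1.16 and -1.01 on the PBS arrays and 3.57, 4.61 and 4.71 on the LPS arrays. Il16, a chemoattractant of Cd4-bearing cells, changed by -2.13 ± 0.42, adjusted p = 0.00223 (averaged adjusted p = 0.0612). Of 26 chemokines 20 rose and 2 fell, and their median was 1.81 on slide 1 and 4.97 on slide 2. Ccl17, which attracts Ccr4-bearing T cells, was not well above background on any PBS array and stood at -1.58, 0.33 and 0.57 with LPS (at least 24.2-fold, adjusted p = 2.50e-05).

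Receptors of these ligands were split. Of 45 cytokine receptors 14 rose and 12 fell. Cd40, the receptor through which T cells license macrophages, stood at -0.29, 1.27 and 1.53 on the PBS arrays and 7.17, 8.24 and 8.44 on the LPS arrays. The death receptor Fas rose by 4.17 ± 0.51, adjusted p = 0.000138, and here slide 1 had the larger rise (5.25 against 3.62, adjusted p of the difference = 0.000946). Lifr, the receptor of leukaemia inhibitory factor, fell from -1.31, 0.07 and 0.65 to -3.23, -2.78 and -3.27 (-2.90 ± 0.50, adjusted p = 0.00104), while its other 2 probes moved by -1.30 and -0.77.

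Among 30 chemokine and chemoattractant receptors 9 rose and 9 fell, and the median of 0.18 turned to -0.05 with the percentile taken over probes above background on all arrays. Hcar2, a receptor for niacin and ketone bodies, rose by 6.27 ± 0.46, adjusted p = 6.05e-06, and another probe by 5.65. Fpr2, a receptor for formylated bacterial peptides and for serum amyloid A, stood at -0.96, 2.76 and 3.41 on the PBS arrays and 6.62, 7.28 and 7.36 on the LPS arrays, where PBS replicate 1 was far below the other PBS arrays. Cxcr4, which holds leukocytes in the marrow by way of Cxcl12, fell from 1.97, 2.49 and 2.39 to -1.74, -1.95 and -1.98 (-4.17 ± 0.34, adjusted p = 1.17e-05).

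Families that respond to interferon rose nearly as a block. Of 15 tested genes of the Schlafen and Ifi200 families 14 rose and none fell (limma), with a median of 3.01. Ifi211 stood at 2.59, 3.11 and 3.02 on the PBS arrays and 6.37, 8.36 and 8.42 on the LPS arrays, and Ifi209 rose by 4.27 ± 0.57, adjusted p = 0.000223 with other probes between 3.72 and 4.41. Ifi213, above background on 2 of 3 PBS arrays, rose by 5.14 ± 0.63, adjusted p = 0.000132. Genes of the Ifi200 family lie close together and are alike in sequence, so a probe may bind the RNA of a neighbour.

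Sensors of foreign nucleic acid rose in 16 of 26 cases and fell in 3, with a median of 2.22. Oasl1, of the oligoadenylate synthetase-like family, stood at 2.82, 1.55 and 2.27 on the PBS arrays and 7.93, 8.84 and 8.95 on the LPS arrays. Zbp1, a sensor of Z-form nucleic acid that can start necroptosis, rose by 4.62 ± 0.47, adjusted p = 4.32e-05, and Ifih1, the RNA sensor Mda5, by 4.39 ± 0.45, adjusted p = 4.55e-05.

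Of 17 PARP family genes 8 rose and 1 fell. Parp14, Parp12 and Parp9, which transfer ADP-ribose in antiviral responses, rose by 3.39 ± 0.24, adjusted p = 4.44e-06, 3.27 ± 0.41, adjusted p = 0.000156 and 3.06 ± 0.37, adjusted p = 0.000119. The TRIM ubiquitin ligases had no common direction, with 13 of 37 up and 14 down, and a median of 0.14 that turned to -0.12 under quantile normalization. Trim13 stood at 1.03, 0.40 and 0.28 on the PBS arrays and 3.71, 4.04 and 4.16 on the LPS arrays and Trim30d rose by 3.16 ± 0.44, adjusted p = 0.000296, while Trim47 fell from 4.35, 4.27 and 4.30 to 1.83, 1.22 and 1.07 (-2.93 ± 0.18, adjusted p = 2.30e-06).

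Genes of protein production and breakdown moved by small amounts, and far more of them upward. Of 40 ribosome biogenesis genes 27 rose and none fell (limma), with a median of 0.92. Rrs1, needed for the large ribosomal subunit, stood at 1.70, 1.87 and 1.66 on the PBS arrays and 3.86, 3.98 and 4.17 on the LPS arrays, and Ddx21, a helicase of the nucleolus, rose by 1.95 ± 0.24, adjusted p = 0.000146. Among 22 cytosolic tRNA synthetases 14 rose and 1 fell, with Aars, the alanyl-tRNA synthetase, at 3.80, 3.23 and 3.19 on the PBS arrays and 5.05, 5.28 and 5.35 on the LPS arrays. Cars, for cysteine, rose by 1.65 ± 0.30, adjusted p = 0.00135 (averaged adjusted p = 0.0717), and Qars, for glutamine, was the one called lower (-0.77 ± 0.20, adjusted p = 0.00994, averaged adjusted p = 0.145).

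Of 41 proteasome subunits 32 rose and none fell (limma), with a median of 0.82. The count depended on the scaling: 22 rose with the percentile over probes above background on all arrays and 17 with quantile normalization, and none fell in either. Psmb8 and Psmb10 replace constitutive subunits in the immunoproteasome, which cuts peptides for display on class I molecules. Psmb8 stood at 4.60, 4.48 and 4.44 on the PBS arrays and 5.95, 6.80 and 6.87 on the LPS arrays, and Psmb10 rose by 2.06 ± 0.28, adjusted p = 0.000236. Psma6, a subunit of the outer ring, rose by 2.36 ± 0.31, adjusted p = 0.000191, more than either.

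Amino acid transporters rose in 11 and fell in 5 of 27 genes, and their median of 0.14 turned to -0.09 with the percentile over probes above background on all arrays. Slc7a1, the main importer of arginine, stood at 2.70, 2.21 and 2.13 on the PBS arrays and 4.96, 5.85 and 5.98 on the LPS arrays. Slc7a5, the light chain of a leucine importer, rose by 3.34 ± 0.55, adjusted p = 0.000765, and another probe of it by 1.13. Slc1a2, a glutamate importer, was not well above background with PBS and at least 4.43-fold higher with LPS (adjusted p = 0.000207).

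In the metabolism of arginine, polyamines, tryptophan and tetrahydrobiopterin 8 of 27 genes rose and 4 fell. Nos2, the inducible synthase that makes nitric oxide from arginine, stood at -1.15, -1.17 and -0.90 on the PBS arrays and 3.76, 7.01 and 7.08 on the LPS arrays. LPS replicate 1 was well below the other LPS arrays, and the rise was 4.91 on slide 1 and 8.08 on slide 2 (adjusted p of the difference = 0.000514). Ass1, which rebuilds arginine from citrulline, rose by 4.83 ± 0.48, adjusted p = 3.55e-05. Paox, an oxidase of acetylated polyamines, fell from 3.66, 4.18 and 4.29 to 0.95, 0.74 and 1.05 (-3.13 ± 0.20, adjusted p = 2.44e-06).

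Of 36 genes of NAD and nucleotide metabolism 14 rose and 11 fell. Cmpk2, a mitochondrial nucleotide kinase that neighbours and rises with the antiviral gene Rsad2 in interferon responses, stood at 0.69, 0.84 and 1.58 on the PBS arrays and 6.21, 8.21 and 8.20 on the LPS arrays. Cd38, which breaks down NAD at the cell surface, stood at -2.28, -2.32 and -2.30 on the PBS arrays and 2.01, 3.49 and 3.23 on the LPS arrays. Upp1, a uridine phosphorylase above background on 2 of 3 PBS arrays, rose by 4.87 ± 0.69, adjusted p = 0.000318, while Entpd1, which breaks down extracellular ATP, changed by -1.96 ± 0.28, adjusted p = 0.000331.

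Lipid genes went both ways. Of 55 genes of triglyceride, phospholipid and sphingolipid metabolism 15 rose and 13 fell, shares close to the 22.2% and 23.7% of all genes. Ch25h, which makes the antiviral oxysterol 25-hydroxycholesterol, stood at -4.56, -3.31 and -3.71 on the PBS arrays and 1.01, 4.23 and 4.13 on the LPS arrays. Acsl1, an acyl-CoA synthetase, rose by 3.57 ± 0.18, adjusted p = 8.58e-07 and Cers6, a ceramide synthase, by 3.59 ± 0.30, adjusted p = 1.31e-05. Fads1, a desaturase of polyunsaturated fatty acids, changed by -2.62 ± 0.48, adjusted p = 0.00155 (averaged adjusted p = 0.050005).

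Of 37 metal handling genes 15 rose and 5 fell. Slc39a14, an importer of zinc and iron, stood at 0.53, -0.22 and -0.24 on the PBS arrays and 3.82, 4.20 and 4.38 on the LPS arrays. Mt2, a metallothionein that binds zinc, stood at 1.41, 2.34 and 2.44 on the PBS arrays and 3.90, 7.75 and 7.88 on the LPS arrays, where the LPS array of slide 1 lay between the groups. Its call (4.45 ± 1.60, adjusted p = 0.0427) rested on single arrays, since the adjusted p was 0.103 without PBS replicate 1, 0.0840 without PBS replicate 2, 0.134 without LPS replicate 2, 0.0806 without PBS replicate 3, 0.139 without LPS replicate 3, and the averaged adjusted p was 0.250. Steap3, a ferrireductase, changed by -2.77 ± 0.46, adjusted p = 0.000807, while another probe of it moved by -0.84.

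At the cell surface, receptors and bridges of phagocytosis and efferocytosis were called higher in 6 and lower in 11 of 36 genes. Msr1, a scavenger receptor, stood at 2.44, 1.13 and 1.10 on the PBS arrays and 3.82, 5.60 and 5.33 on the LPS arrays (3.36 ± 0.56, adjusted p = 0.000884, averaged adjusted p = 0.0511). Havcr2, which encodes Tim-3 and was above background on 2 of 3 LPS arrays, fell from 0.17, -0.56 and -0.59 to -2.75, -3.88 and -4.23 (-3.29 ± 0.38, adjusted p = 9.77e-05). Of 43 integrins and adhesion molecules 13 rose and 8 fell. Icam1, the ligand of leukocyte integrins, stood at 0.37, -0.68 and -0.15 on the PBS arrays and 4.95, 4.26 and 4.31 on the LPS arrays. Itga5, a subunit of the fibronectin receptor, rose by 3.21 ± 0.38, adjusted p = 0.000102, and Nrp1, a co-receptor of semaphorins, changed by -2.24 ± 0.52, adjusted p = 0.00559 (averaged adjusted p = 0.100).

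Genes of the cytoskeleton and migration rose in 17 and fell in 7 of 48 cases. Marcksl1, which links actin to the membrane, stood at 0.43, 3.57 and 4.01 on the PBS arrays and 6.98, 8.17 and 8.30 on the LPS arrays. Fscn1, the actin bundler of mature dendritic cells, rose by 4.92 ± 0.63, adjusted p = 0.000176, by 3.15 on slide 1 and 5.81 on slide 2. Myo5a, a motor of vesicle transport, changed by -2.61 ± 0.27, adjusted p = 4.48e-05. Of 25 genes of coagulation, fibrinolysis and serpins 5 rose and 3 fell, against 22.2% and 23.7% of all genes. Serpinb2, an inhibitor of plasminogen activators, stood at -2.46, -4.13 and -3.42 on the PBS arrays and 1.88, 3.89 and 3.88 on the LPS arrays. Procr, the receptor of protein C, rose by 3.73 ± 0.52, adjusted p = 0.000294, and Thbd, the thrombomodulin that activates protein C, fell from 1.71, 1.63 and 2.01 to -0.79, -0.81 and -0.69 (-2.54 ± 0.20, adjusted p = 8.28e-06).

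In cyclic AMP, purinergic and RGS signalling 10 of 48 genes rose and 11 fell, with a median of -0.15. These shares were close to the 22.2% and 23.7% of all genes, so the list as a whole did not stand out. Adora2a, the adenosine receptor that restrains inflammation through cyclic AMP, stood at -0.80, -1.85 and -2.02 on the PBS arrays and 4.79, 4.53 and 5.04 on the LPS arrays, and Pde4b, which breaks cyclic AMP down, rose by 4.61 ± 0.52, adjusted p = 8.33e-05. Rgs2, a brake on G protein signalling, fell from 6.46, 6.26 and 6.08 to 3.81, 1.74 and 1.84 (-3.81 ± 0.50, adjusted p = 0.000207).

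The Notch pathway had 5 rises and 8 falls among 22 genes tested. Mfng and Lfng, the glycosyltransferases that tune which ligand Notch answers to, both fell. Mfng stood at 1.51, 2.92 and 3.04 on the PBS arrays and -0.73, -0.98 and -1.23 on the LPS arrays and Lfng changed by -3.06 ± 0.38, adjusted p = 0.000141. The ligand Dll1, not well above background on any PBS array, was at least 3.82-fold higher with LPS (adjusted p = 0.00182).

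Of 19 circadian clock genes 5 rose and 8 fell. Dbp and Tef, output factors of the clock, fell: Dbp stood at 2.22, 3.66 and 3.82 on the PBS arrays and -0.08, -0.40 and -0.53 on the LPS arrays, and Tef changed by -2.34 ± 0.28, adjusted p = 0.000121. Nr1d1, the repressor Rev-erb alpha, was not well above background on any LPS array and at least 1.72-fold lower with LPS (adjusted p = 0.00155). Cry1, a repressor of the core loop above background on 2 of 3 PBS arrays, rose by 2.17 ± 0.30, adjusted p = 0.000270. Among 56 chromatin enzymes 10 rose and 18 fell. The deacetylase Hdac5 stood at 5.46, 5.85 and 5.62 on the PBS arrays and 3.34, 2.29 and 2.29 on the LPS arrays. Dnmt1, the maintenance DNA methyltransferase, changed by -2.76 ± 0.27, adjusted p = 3.74e-05, Setd7 by -2.63 ± 0.41, adjusted p = 0.000571, and the demethylase Kdm4a rose by 2.37 ± 0.54, adjusted p = 0.00505 (averaged adjusted p = 0.0812).

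The largest falls were smaller than the largest rises and were spread over genes of unlike function. Fam214a stood at 2.94, 3.39 and 3.46 on the PBS arrays and -2.10, -3.27 and -3.44 on the LPS arrays, a difference of -6.20 ± 0.42, adjusted p = 3.62e-06. Rasgrp3, an exchange factor for Ras that limits Toll-like receptor responses, stood at 0.33, 2.05 and 1.94 on the PBS arrays and -4.20, -4.05 and -4.43 on the LPS arrays. For both genes, as for Bmf and Smpd3, 1 of the 3 LPS arrays was not well above background, and no LPS array came near a PBS array. Bmf, a pro-apoptotic member of the Bcl2 family, stood at 1.19, 2.96 and 2.92 on the PBS arrays and -1.71, -3.70 and -3.78 on the LPS arrays, and its fall was -2.89 on slide 1 and -6.68 on slide 2 (adjusted p of the difference = 0.0270).

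Transporters were among the falls. Slco2b1, an organic anion transporter, changed by -5.56 ± 0.47, adjusted p = 1.42e-05, and another probe of it by -6.51. Slc46a3, a lysosomal transporter, stood at 4.47, 5.25 and 5.41 on the PBS arrays and 0.84, -0.50 and -0.22 on the LPS arrays, and Slc26a11, an anion exchanger, changed by -5.02 ± 0.42, adjusted p = 1.26e-05. Lpar6, a receptor for lysophosphatidic acid, stood at 4.51, 6.20 and 6.21 on the PBS arrays and 0.67, 0.91 and 0.71 on the LPS arrays. The LPS arrays of Lpar6 were close together across slides, while the PBS array of slide 1 was the low one.

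Angptl4, an inhibitor of lipoprotein lipase, stood at 4.88, 5.21 and 4.98 on the PBS arrays and -0.12, 0.74 and 0.30 on the LPS arrays, with a difference of -4.72 ± 0.24, adjusted p = 8.12e-07 that was close on the 2 slides (-5.01 and -4.58). St6gal1, which adds sialic acid to glycans, changed by -4.73 ± 0.30, adjusted p = 2.55e-06, but another probe changed by -1.70 only. Rnf150 changed by -4.63 ± 0.42, adjusted p = 2.01e-05, and its other 2 probes by -3.94 and -3.65. Nlrp1b, an inflammasome sensor, changed by -4.77 ± 0.66, adjusted p = 0.000279, and another probe by -3.13. Smpd3, a neutral sphingomyelinase, changed by -4.63 ± 0.45, adjusted p = 3.43e-05.

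For 121 genes the probe was above background on all 3 PBS arrays and on no LPS array. Of these 121 genes 101 were called lower, a direction that this choice of genes largely sets in advance. Zfp395 led with levels of 0.19, 0.59 and 0.51 on the PBS arrays (at least 27.1-fold lower with LPS, adjusted p = 1.73e-06), and its other 3 probes moved by -5.25 to -1.37. Gpr34, a receptor for lysophosphatidylserine found on microglia and tissue macrophages, stood at -1.57, 0.52 and 0.72 with PBS (at least 18.6-fold lower, averaged adjusted p = 0.0722). Fbxo32, a ubiquitin ligase known from muscle wasting, was at least 13.8-fold lower, and Fam78b at least 6.96-fold. Arhgap19 was at least 6.43-fold lower, with PBS arrays at -0.72, -2.07 and -2.14.

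The size of the response differed between the slides for many genes. Among 3828 genes called with a difference over 1 in size, 3813 had the same sign on both slides, and in 3209 the difference was smaller on slide 1. The median ratio of the slide 1 to the slide 2 difference was 0.636. The test of the slide 1 minus the slide 2 response called 3628 genes, or 27.7% of those tested (limma, 4 residual degrees of freedom). Slide 1 holds 1 array a group, which that test assumes to vary like the arrays of slide 2, whose spread may be technical. With slide as a block the LPS test called 4100 genes higher and 4125 lower, and all 6019 genes of the fit without the block were among them.

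**Figure D4:**
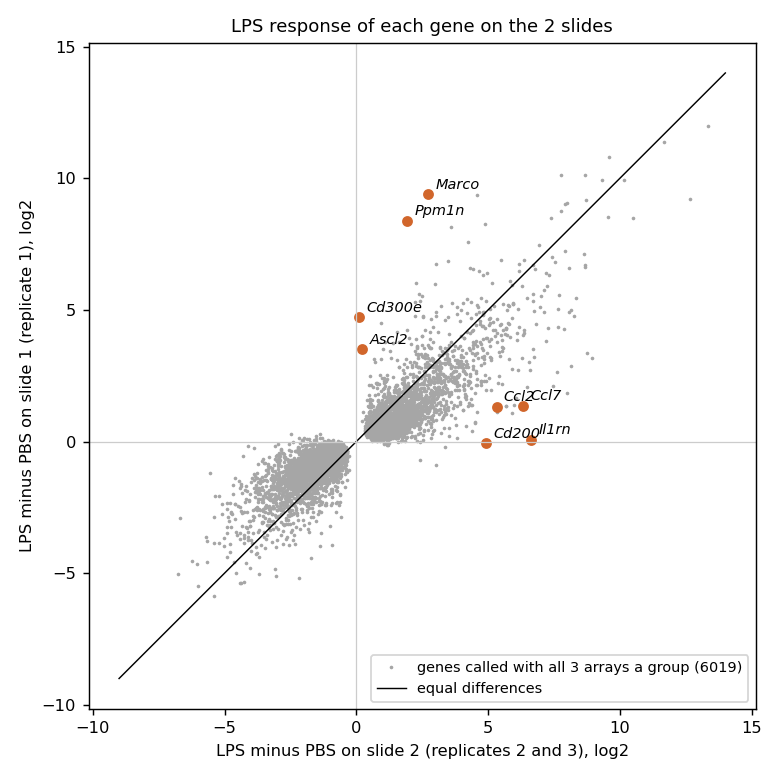
LPS minus PBS difference (log2) of each gene called in either direction, on slide 2 (horizontal axis, mean of replicates 2 and 3) and on slide 1 (vertical axis, replicate 1), with the 8 genes of smallest p for the slide difference in orange. Cd300e and Ascl2 were called for the slide difference and not for LPS. Most genes lie between the line of equal differences and the horizontal axis. The median ratio of the slide 1 to the slide 2 difference was 0.636 for differences over 1.

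The genes of smallest p for the slide difference parted in the PBS group, the LPS group or both. Marco, a scavenger receptor for bacteria, stood at -1.06, 6.33 and 6.38 on the PBS arrays and 8.35, 9.07 and 9.08 on the LPS arrays, so PBS replicate 1 was the array that stood apart. In ERRα-/- cells Marco stood at 3.50, 6.53 and 6.68 on the PBS arrays, where slide 1 was again the low one. The pooled rise of Marco (4.95 ± 1.67, adjusted p = 0.0325, averaged adjusted p = 0.116) thus holds a rise of 9.40 on slide 1 and 2.72 on slide 2, and its adjusted p was 0.0832 without LPS replicate 2, 0.0837 without LPS replicate 3. Cd300e, an activating receptor of monocytes, stood at -0.90, 2.60 and 2.60 on the PBS arrays and 3.84, 2.61 and 2.81 on the LPS arrays, and Ppm1n, a phosphatase above background on 2 of 3 PBS arrays, at -7.29, -1.82 and -1.87 on the PBS arrays and 1.10, 0.10 and 0.07 on the LPS arrays (averaged adjusted p = 0.0776). For each of these the slide 1 PBS array was the low one.

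In the other direction the LPS array of slide 1 stayed low. Il1rn, the natural antagonist of the interleukin-1 receptor, stood at -1.02, -3.46 and -3.51 on the PBS arrays and -0.94, 3.13 and 3.15 on the LPS arrays. On slide 1 it moved by 0.08 and on slide 2 by 6.62, and its call (4.44 ± 1.33, adjusted p = 0.0191, averaged adjusted p = 0.241) ended when single arrays were left out, with an adjusted p of 0.0655 without PBS replicate 2, 0.0755 without LPS replicate 2, 0.0657 without PBS replicate 3, 0.0761 without LPS replicate 3. The monocyte chemoattractants Ccl2 and Ccl7 stood at 3.54, 6.63 and 6.58 and at 0.63, 4.97 and 4.88 on the LPS arrays (averaged adjusted p = 0.108 and 0.122). Cd200, a ligand that restrains myeloid cells, stood at 2.54, 0.09 and 0.23 on the PBS arrays and 2.48, 5.04 and 5.12 on the LPS arrays (averaged adjusted p = 0.233), and its adjusted p was 0.0631 without PBS replicate 2, 0.0640 without LPS replicate 2, 0.0602 without PBS replicate 3, 0.0656 without LPS replicate 3. In ERRα-/- cells Il1rn stood at 0.28, 4.31 and 4.41 on the LPS arrays, so there too slide 1 was low.

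At rest the slides also differed: PBS replicate 1 lay over 2 below the mean of PBS replicates 2 and 3 for 130 genes and over 2 above it for 102. PBS replicates 2 and 3 lay over 2 apart for 36 genes. With LPS, replicate 1 was lower by over 2 for 206 genes and higher for 135, and replicates 2 and 3 lay over 2 apart for 40.

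Esrra, the gene deleted in the other genotype, rose in wild-type cells from 4.54, 4.39 and 4.68 to 5.87, 6.25 and 6.36 (1.62 ± 0.51, adjusted p = 0.0232). The groups did not overlap, but the call rested on the number of arrays: the adjusted p was 0.0504 without PBS replicate 1, 0.0674 without PBS replicate 2, 0.0656 without LPS replicate 2, 0.0726 without LPS replicate 3, and the averaged adjusted p was 0.171. In ERRα-/- cells the same probe stood at 2.48, 0.25 and 0.15 on the PBS arrays and at 4.40, 3.92 and 3.83 on the LPS arrays, below every wild-type array of the same treatment. Genes often used as constant references were not all constant. Gapdh rose from 8.73, 8.54 and 8.47 to 9.06, 9.29 and 9.31 (0.64 ± 0.14, adjusted p = 0.00318, averaged adjusted p = 0.148), and its other 6 probes rose by 0.43 to 0.74. Actb stood at 9.36, 9.62 and 9.86 on the PBS arrays and 9.63, 10.06 and 10.15 on the LPS arrays, with a difference of 0.34 ± 0.22, adjusted p = 0.243 (adjusted p = 0.0387 with replicate number as a block). Over a housekeeping panel of 19 genes 5 rose and 2 fell, and the median of 0.31 turned to -0.08 under quantile normalization.

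Against the response of ERRα-/- macrophages, the wild-type response differed in 0 genes (limma contrast of the 2 responses, adjusted p under 0.05, 0% of 13114). Unadjusted, 293 genes had a p under 0.05, a share below the 0.05 that such a threshold passes where no gene differs. That share depended on the fit. With slide as a block 877 genes had such a p, and with replicate number as a block 751. Both of these shares were above 0.05, and neither blocked fit called a gene after adjustment. The difference for Acod1 was -2.38 ± 1.05 (ERRα-/- minus ERRα+/+) and was not called. The count of 0 genes came with all 12 arrays. Within slide 2, where each group had 2 arrays whose spread may be technical, 550 genes were called, and with normexp background correction 1 gene was. These counts do not show that the 2 genotypes respond alike.

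Of 10913 probes above background that could not be paired with a RefSeq gene, 1913 were called higher, or 17.5%, and 1512 lower, or 13.9%. These shares are lower than those over named genes, and they count probes and not genes.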

How the data were processed

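RNA of 12 macrophage samples was measured on 1-colour Agilent arrays of 62976 spots, of which 59305 in 55681 probes were not controls. The deposited intensity of each spot is the processed signal, background-corrected by Agilent Feature Extraction version 11.5.1.1 per the file headers, while version 9.3.2.1 stands in the submitters' processing notes. The deposited value table held the same intensity in all 62976 spots of every array. The deposited flags (values of another kind, per the file headers) marked outlier spots and spots well above background, and none was saturated.

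Control and outlier spots were left out, log2 intensities were averaged per probe, and each array's 75th percentile over probes was subtracted. The deposited files give no log2 values of their own. Of the probes, 27509 were named as 20887 genes by matching accessions to RefSeq (GRCm38.p6), and 28172 were not named here. Probes were kept if flagged well above background throughout at least 1 group of 3 arrays, and a gene was its probe with the highest mean. One mean per group was fitted to all 12 arrays with limma 3.58.1 in R 4.3.3 (8 residual degrees of freedom), with Benjamini-Hochberg adjustment over 13114 genes at 0.05. The number of arrays limits the precision.

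Genes were named by rule: the 12 largest rises and falls with no overlap between groups and above background on at least 2 arrays a group, the 10 largest bounds each way, the leading genes of each list, a set of fixed genes, cell markers, and the 4 genes of smallest p each way for the slide difference. Symbols of the Gm, LOC and Rik kind were passed over. Some of the genes named by rule are not reported here. Lists and rules were chosen with earlier results of these data known, and the lists overlap in part with lists used in them. The tests reported use no pairing, and a fit with replicate number as a block was an alternative. Deviations from the group means correlated for the same number (r = 0.357, 0.254 and 0.279), and replicate 1 shares a slide. Different numbers on slide 2 correlated as well (0.232 and 0.198). Alternatives covered the scaling, background correction, filter, probe summary, arrays in the fit, slide, replicate number and each array left out.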

Additional observations from a re-analysis of the deposited data

How the results depend on the processing

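No gene reversed direction among the 203 named, and the deposited value table gave the same counts. Leaving out 1 of the 6 arrays in turn gave 2170 to 3319 genes higher and 2358 to 3367 lower, and 156 of the 172 named genes called kept their call in each such fit. Within slide 2 alone 4788 genes were called higher and 4691 lower, all 172 named genes kept their call, and the difference from the ERRα-/- response was called for 550 genes. That fit rests on replicates 2 and 3, whose spread may be technical, so its counts may be too high. Averaging replicates 2 and 3, which leaves fewer arrays, gave 919 higher and 947 lower with 132 of the named genes still called, and with slide as a block as well 1929 higher and 2059 lower with 153. Both averaged fits were chosen after seeing the data. With the replicate block, the paired analysis, 3951 genes were called higher and 3983 lower, and 6006 of the 6019 genes called without it were among them. Among the named genes the block ended 1 call, that of Il1r2 (1.72, adjusted p = 0.0566, averaged adjusted p = 0.422), and brought in 3, those of Actb (0.34, adjusted p = 0.0387), Elane (-0.60, 0.00493) and Mmp8 (-0.64, 0.0449). With normexp background correction 1 gene was called for the genotype difference, and without the filter on dim probes 1690 genes were called for the slide difference in place of 3628. The cause of these differences was not tested. With quantile normalization 2409 genes were called higher and 3716 lower. Dim probes limit the data: the fold change of a gene not above background in a group is a bound, and 2914 genes that were not called had intervals reaching past 1 or -1.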

Other observations

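Of 288 long non-coding RNAs tested, 53 were called higher and 83 lower with LPS, with a median difference of -0.18, while 12717 protein-coding genes had 2826 higher and 3010 lower with a median of 0.02. The median of the long non-coding RNAs lies within the shift that another scaling gives to all genes (-0.21). Of 98 transcribed pseudogenes 28 were higher and 18 lower, and their probes may bind the RNA of the parent gene.

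Among genes with both an ISRE match and a match to the looser NF-kB letters in the promoter, 75 of 179, or 41.9%, were called higher. With an ISRE match alone the share was 62 of 176, or 35.2%, with the looser NF-kB letters alone 22.1% of 6704, and with neither 20.2% of 3462. The share called lower was 18.4%, 18.8%, 23.5% and 24.6% in the same order. These are descriptions of letters in a window of 300 bases, with no test.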
